A study of Mus musculus with 2 samples.

Results

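The *Spp1* *Thbs1* macrophages of the pressure-overloaded mouse heart are monocytes and macrophages with high transcript levels of *Spp1*, which encodes the secreted matrix protein osteopontin, and of *Thbs1*, which encodes thrombospondin 1. They were chosen by limits on single genes in each cell of a single-cell RNA sequencing matrix, and 58 cells met all limits, among 3384 monocytes and macrophages and 5263 CD45+ cells. Levels are reads of a gene per 1000000 reads of the cell (CPM). A member had at least 200 CPM of *Csf1r* and 2000 CPM of *Lyz2*, which mark monocytes and macrophages, at least 500 CPM of *Spp1* and at least 200 CPM of *Thbs1*. A member also had under 200 CPM of *Gpnmb*, under 1000 CPM of *Ly6c2* and of *Saa3*, under 50 CPM of the cell cycle gene *Mki67* and under 200 CPM of the B cell gene *Cd79a*. These genes are described and not compared, since they chose the cells.

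CD45+ cells were taken 1 week after surgery from the hearts of male mice aged 8 weeks on a C57BL/6 background. Sham surgery and transverse aortic constriction (TAC, which overloads the left ventricle) were each done on WT and CD3ϵ-/- mice. A further group, WT mice given TAC and injections of an antibody to CD8, is labelled CD8-depleted. CD3ϵ-/- mice lack T cells from birth, so their groups differ from WT in more than CD8+ T cells. Each group was 1 hashtag in 1 pooled library, so a group is 1 sample, no test between groups was possible, and the intervals below cover counting error only. Hearts were digested and cells recovered from a Percoll gradient, and how many hearts made up a hashtag is not given in the sources used here.

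Macrophages that carry osteopontin appear in injured heart, lung and other tissues next to the resident macrophages that seed these organs early in life. Osteopontin binds integrins and CD44, and thrombospondin 1 binds matrix, CD36 and CD47 and can activate latent TGF-β. Monocytes that enter a tissue carry *Ccr2* and *Ly6c2*, and they lose *Ly6c2* as they become macrophages. Descent from monocytes was not traced in these mice.

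The kept cells per group were 835 to 1615, with 91899777 to 208758777 reads. No barcode number occurred under 2 hashtags. Cells with 100 CPM or more of *Cd8a* or *Cd8b1*, the CD8 chains, were 14 of 1615 in WT TAC (0.867%, exact 95% interval 0.475 to 1.45) and 8 of 894 in the sample labelled CD8-depleted (0.895%, 0.387 to 1.76). The files therefore do not show the depletion in the group with that label. *Cd3e*, the targeted gene, was at 100 CPM or more in 8 of 835 cells of CD3ϵ-/- sham (0.958%) and 13 of 919 of CD3ϵ-/- TAC (1.41%), against 3.10% in WT sham and 2.23% in WT TAC, so its transcript was not absent under that label. Where these reads lie in relation to the altered part of the gene cannot be read from the counts. Cells with *Cd3e* together with a CD8 chain were 0 in both CD3ϵ-/- groups.

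The members were rare in sham hearts and most numerous in WT TAC. They were 3 of 564 monocytes and macrophages in WT sham (0.532%, exact Clopper-Pearson 95% interval 0.110 to 1.55) and 3 of 474 in CD3ϵ-/- sham (0.633%, 0.131 to 1.84). They were 30 of 1087 in WT TAC (2.76%, 1.87 to 3.92), 15 of 657 in CD3ϵ-/- TAC (2.28%, 1.28 to 3.74) and 7 of 602 in the sample labelled CD8-depleted (1.16%, 0.469 to 2.38). The share of WT TAC exceeded that of WT sham by 2.23 percentage points (0.878 to 3.46), and that of CD3ϵ-/- TAC exceeded CD3ϵ-/- sham by 1.65 (0.0841 to 3.19). CD3ϵ-/- TAC differed from WT TAC by -0.477 points (-2.01 to 1.23), an interval that holds 0. The sample labelled CD8-depleted differed from WT TAC by -1.60 points (-2.95 to -0.0882), and the interval held 0 under 6 of the 10 other limits, filters and denominators tried. For CD3ϵ-/- TAC against its sham it held 0 under 4 of the 10.

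**Figure D1:**
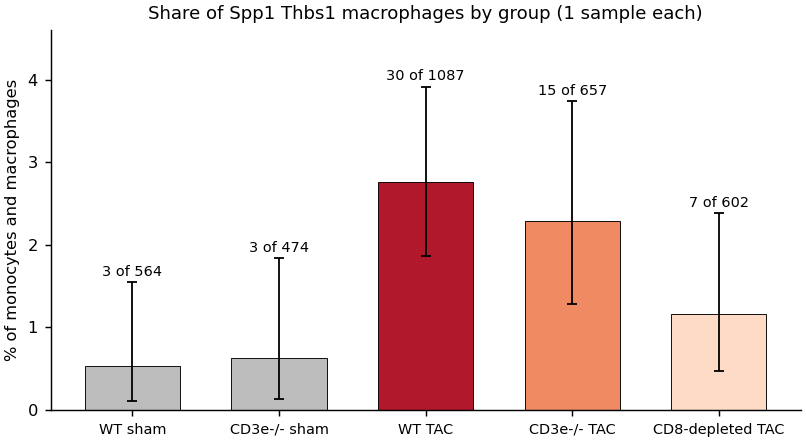
Share of *Spp1* *Thbs1* macrophages among monocytes and macrophages in percent, 1 bar for each group, with exact 95% intervals for counting error and the number of cells above each bar. The bars of the 2 sham groups stand at 0.532% and 0.633%, below the 3 TAC groups at 2.76%, 2.28% and 1.16%.

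Each of the defining transcripts was much more common than the pair. *Spp1* reached its limit in 145 of 1087 monocytes and macrophages of WT TAC (13.3%) and *Thbs1* in 174, and 37 cells had both. In CD3ϵ-/- TAC the counts were 103 (15.7%) and 152 (23.1%) of 657, and 26 cells (3.96%, exact interval 2.60 to 5.74) had both. Of the 89 cells with both in all groups, 12 were left out by the *Gpnmb* limit alone and 10 by the *Ly6c2* limit alone. The lowest *Spp1* of a member was 513 CPM and the highest of a cell left out by that limit alone was 490 CPM. For *Thbs1* these values were 224 and 193 CPM, and the highest *Gpnmb* of a member was 154 CPM against 206 CPM in the nearest cell left out. The gaps were wider at the limits of *Saa3* (245 CPM inside and 1843 CPM outside), *Mki67* (20.1 and 194 CPM), *Csf1r* (311 and 80.9 CPM) and *Lyz2* (2798 and 1442 CPM), each of which left out 2 or 3 cells alone. By *Spp1* alone 230 cells missed the set and by *Thbs1* alone 143, and no gap in either gene marks its edge.

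Over the 30 members of WT TAC, *Spp1* had a lowest, median and highest level of 539, 1257 and 29077 CPM, and *Thbs1* of 241, 1274 and 17590 CPM. Both levels thus spread widely, and their rank correlation over these 30 cells was 0.08, which is given as a description of cells from 1 library. In CD3ϵ-/- TAC the median *Spp1* was 1302 CPM and the median *Thbs1* 523 CPM over 15 cells. In the sample labelled CD8-depleted they were 1939 and 1507 CPM over 7 cells. The 3 members of WT sham had *Spp1* of 695, 4113 and 19110 CPM, and the 3 of CD3ϵ-/- sham 775, 2484 and 14141 CPM.

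**Figure D2:**
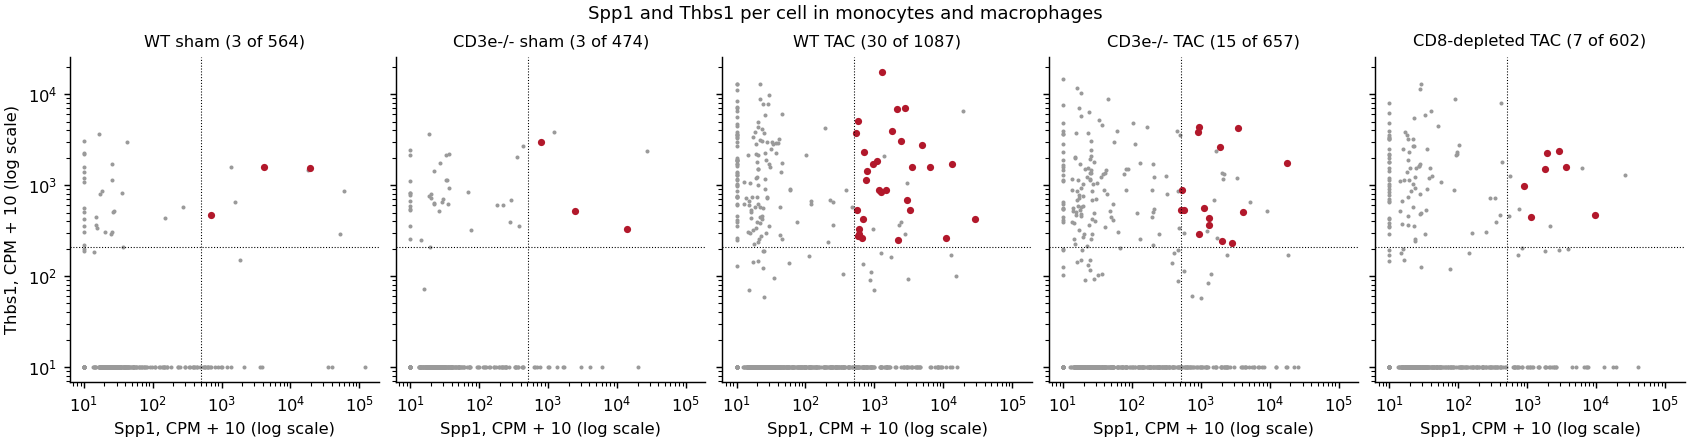
Levels of *Spp1* (horizontal) and *Thbs1* (vertical) per cell in CPM with 10 added, on log axes, for the monocytes and macrophages of each group, with members in red and the limits of both genes as dotted lines. The members, 30 of 1087 in WT TAC, sit at the lower edge of the upper right corner as well as far inside it.

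In WT TAC members carried more reads than the other monocytes and macrophages, with a median of 157214 against 99616 reads a cell, and fewer than *Gpnmb* macrophages (198702). In CD3ϵ-/- TAC the medians of members and other cells were 128114 and 128766 reads. Of all groups together, 9 of the 58 members lay above the 95th percentile of reads of all monocytes and macrophages. Shares of cells with a read that are set against the other cells are therefore given after each cell was thinned to 38944 reads. Thinning left 29 of the 30 members of WT TAC and 957 of the 1057 other monocytes and macrophages. Counts out of 30 or 58 members, counts by cluster and shares within the split by *Arg1* are before thinning. B cells thinned in the same way show the level of stray reads, although they held fewer reads at the start (median 52416 in WT TAC).

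Of the 4 other transcripts that name these cells, 3 were higher in WT TAC members than in the other monocytes and macrophages. *Fabp5*, which encodes a fatty acid carrier, was not. *F10*, which encodes coagulation factor X, was at 261 CPM over the summed reads of the WT TAC members and at 62.6 CPM over the other monocytes and macrophages. After thinning, reads were present in 18 of 29 members (62.1%) against 154 of 957 other cells (16.1%) and 1 of 55 B cells (1.82%). *Vcan*, which encodes the matrix proteoglycan versican, was at 257 against 68.9 CPM, with reads in 55.2% against 11.1% of cells. *Clec4e*, the receptor Mincle for mycobacterial and damage-derived lipids, was at 339 against 79.5 CPM, with reads in 65.5% against 19.0%. Against the *Ly6c*-high monocytes of WT TAC, *F10*, *Vcan* and *Clec4e* each differed by less than 2-fold, so these 3 do not set the members apart from monocytes. All 3 were past 2-fold higher than in *Ccr2* MHC class II macrophages and in *Gpnmb* macrophages. *Fabp5* was at 73.4 CPM in the members and at 178 CPM in the others, with reads in 24.1% and 20.5% of cells. It was instead at 1172 CPM in the *Gpnmb* macrophages of WT TAC, where its median cell had 577 CPM.

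For most markers the values of single members ran from 0 upward. In the 30 members of WT TAC the lowest, median and highest *F10* levels were 0, 145 and 2540 CPM, those of *Vcan* 0, 88.8 and 2007 CPM and those of *Clec4e* 0, 105 and 2102 CPM. *F10* of 100 CPM or more was found in 17 members of WT TAC, in 5 of 15 members of CD3ϵ-/- TAC and in 1 of 7 in the sample labelled CD8-depleted. *Vcan* of 200 CPM or more was found in 11, 0 and 2 of these members. In the 2 last groups *Vcan* was at 42.5 and 85.3 CPM in the members and at 95.5 and 95.6 CPM in the other monocytes and macrophages, so the higher level of WT TAC was not seen there. *F10* and *Clec4e* were higher in the members of CD3ϵ-/- TAC (371 against 93.2 CPM and 199 against 114 CPM) and not in those of the sample labelled CD8-depleted (52.4 against 116 CPM and 48.6 against 120 CPM).

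The members were compared with 4 sets from the same WT TAC heart sample, which alone held at least 20 members. These were all other monocytes and macrophages (1057 cells), *Ly6c*-high monocytes with *Ccr2* (89), *Ccr2* macrophages with MHC class II and without *Spp1* (361) and *Gpnmb* macrophages (61). Genes of 50 CPM or more in either set were compared by the log2 ratio of their summed-read levels with 10 CPM added to each, and 2-fold was taken as the limit of size. Against the other monocytes and macrophages, 147 of 3983 genes were at 2 or more times the level (3.69%) and 161 at or below the level that lies 2-fold lower (4.04%). The counts were 127 (3.17%) and 132 (3.29%) of 4010 genes against *Ly6c*-high monocytes. They were 223 (5.61%) and 170 (4.28%) of 3973 against the *Ccr2* MHC class II macrophages, and 420 (10.4%) and 296 (7.31%) of 4051 against *Gpnmb* macrophages. The count was highest against *Gpnmb* macrophages under each setting tried. It was lowest against *Ly6c*-high monocytes here, but lowest against the other monocytes and macrophages with no filter on level (748 against 762) and over all 3 TAC groups (19 against 52). The sets were of unequal size.

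Several secreted matrix transcripts were higher in the members of WT TAC than in the other monocytes and macrophages. *Fn1*, which encodes fibronectin, was the most abundant of them, at a summed level of 4897 CPM (Poisson interval 4840 to 4956) in the members of WT TAC against 1158 CPM in the other monocytes and macrophages, a log2 ratio of 2.07. Over the 30 members its lowest, median and highest levels were 44.3, 4408 and 13286 CPM, while the median other cell had 47.6 CPM. It was higher in each TAC group, with log2 ratios of 2.30 in CD3ϵ-/- TAC and 2.68 in the sample labelled CD8-depleted. *Tgfbi*, a matrix protein induced by TGF-β, was at 2651 against 1229 CPM (1.10), *Ecm1* at 390 against 174 CPM (1.12) and *Sparc*, a collagen-binding protein, at 74.5 against 16.2 CPM (1.69). Of 8 matrix genes compared, 5 were past 2-fold higher and 0 lower, with a median log2 ratio of 1.11, beside a median of 0.08 over all 3983 genes. The 5 include *Vcan*, a marker that names these cells. Against *Ly6c*-high monocytes 3 of 8 were past 2-fold higher and 0 lower, with a median of 0.20. These 3 were *Fn1*, *Sparc* and *Ecm1*, while *Vcan* and *Tgfbi* were not past 2-fold.

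Among 14 matrix proteases and inhibitors, 5 were past 2-fold higher and 2 lower (median 0.11). *Mmp14*, a membrane-bound collagenase, was at 350 against 141 CPM and *Adam8*, a membrane protease, at 330 against 106 CPM. *Mmp12*, the macrophage elastase, was at 20.7 against 205 CPM. Of 8 genes of the coagulation and plasminogen system, *F10*, *Thbd* (thrombomodulin) and *Plaur*, the urokinase receptor, were past 2-fold higher. *Plaur* was at 324 against 110 CPM with reads in 76.7% of members before thinning. *Pros1* was past 2-fold lower, and *F13a1*, the transglutaminase that cross-links fibrin, was at 354 against 499 CPM. Of 10 receptors for osteopontin and thrombospondin 1, 0 were past 2-fold higher and *Itga9* was lower (7.68 against 51.9 CPM), a share near that of all genes, with *Cd47* at 314 against 416 CPM and *Itgav* at 117 against 81.0 CPM. *Cd36* was past 2-fold higher against *Ly6c*-high monocytes and against *Ccr2* MHC class II macrophages, and *Cd44* against *Gpnmb* macrophages. The *Cd36* sum is that of few cells. Before thinning it had reads in 6.25% of the 16 members of WT TAC with *Arg1* and 35.7% of the 14 without, with a median of 0 CPM in both. Of 7 coagulation and plasminogen genes, *Thbd* alone was past 2-fold higher than in *Ly6c*-high monocytes (median -0.03). Of 13 proteases and inhibitors, 4 were past 2-fold higher than in those monocytes and 0 lower (median 0.33).

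Many glycolysis and hypoxia-response transcripts were higher in the members of WT TAC. Of 23 genes compared, 12 were past 2-fold higher and 0 lower, with a median log2 ratio of 1.00. With each cell given equal weight the count was 15 of 22 with a median of 1.21. *Hif1a*, which encodes the oxygen-regulated subunit of the HIF-1 transcription factor, was at 683 against 148 CPM (log2 ratio 2.13). Its lowest, median and highest levels in the members were 0, 474 and 2178 CPM, and after thinning it had reads in 96.6% of members, 52.0% of the other cells and 36.4% of B cells. *Vegfa*, an angiogenic factor, was at 142 against 12.1 CPM (2.78), yet reads were found in only 11 of the 30 members, which makes its sum that of few cells. *Egln3*, an oxygen sensor that is itself a HIF target, was at 63.9 against 5.80 CPM with reads in 8 members.

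The enzymes of glycolysis differed in how many members carried them. *Pgk1*, which encodes phosphoglycerate kinase, had reads in all 30 members of WT TAC and *Hk2*, a hexokinase, in 19. *Pgk1* was at 633 against 215 CPM (1.51), with a lowest, median and highest level of 14.8, 606 and 3552 CPM. *Eno1* was at 1026 against 491 CPM (1.05), the glucose transporter *Slc2a1* at 185 against 62.3 CPM (1.43) and the lactate exporter *Slc16a3* at a log2 ratio of 1.27. Against *Ly6c*-high monocytes 4 of 24 genes of the list were past 2-fold higher, namely *Vegfa*, *Egln3*, *Hif1a* and *Ddit4*, and the median log2 ratio was 0.44. Against *Gpnmb* macrophages 14 of 24 were, with a median of 1.08. *Slc2a1* was at 167 CPM in *Ly6c*-high monocytes, a log2 ratio of 0.14, so the enzymes and the transporter were closer to the level of monocytes than *Hif1a* and *Vegfa* were.

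*Hif1a* was not past 2-fold higher outside WT TAC. Its log2 ratio to the other monocytes and macrophages was 0.44 in CD3ϵ-/- TAC (194 against 140 CPM) and -0.41 in the sample labelled CD8-depleted (126 against 170 CPM). *Slc2a1* had log2 ratios of 1.08 and 0.86 there. These groups held 15 and 7 members.

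Promoter sequences from RefSeq (GRCm38.p6) show where the core letters of a HIF site lie in genes of this list. The 250 bases before the start were searched for ACGTG on either strand (CACGT on the printed strand), and the matches are in capitals. The 4 genes shown from the list were past 2-fold higher and were chosen because they hold a match. They stand beside the first of 2 windows of *Spp1*, neither of which held one, while the window of *Clec4e*, a marker outside the list, held 1 match. All lie on the plus strand: *Pgk1* at chrX:106186850-106187099, *Slc2a1* at chr4:119108495-119108744, *Slc16a3* at chr11:120948817-120949066, *Hif1a* at chr12:73907617-73907866 and *Spp1* at chr5:104434861-104435110.
Pgk1: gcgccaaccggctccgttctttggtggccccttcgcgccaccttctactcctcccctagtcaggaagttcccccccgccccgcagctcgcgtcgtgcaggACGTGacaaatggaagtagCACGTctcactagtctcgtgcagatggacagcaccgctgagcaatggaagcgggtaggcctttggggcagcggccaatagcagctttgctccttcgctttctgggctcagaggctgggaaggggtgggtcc
Slc2a1: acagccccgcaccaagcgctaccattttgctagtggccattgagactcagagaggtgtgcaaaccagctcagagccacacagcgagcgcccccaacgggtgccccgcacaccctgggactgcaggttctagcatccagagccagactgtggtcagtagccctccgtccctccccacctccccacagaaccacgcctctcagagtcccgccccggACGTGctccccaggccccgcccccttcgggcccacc
Slc16a3: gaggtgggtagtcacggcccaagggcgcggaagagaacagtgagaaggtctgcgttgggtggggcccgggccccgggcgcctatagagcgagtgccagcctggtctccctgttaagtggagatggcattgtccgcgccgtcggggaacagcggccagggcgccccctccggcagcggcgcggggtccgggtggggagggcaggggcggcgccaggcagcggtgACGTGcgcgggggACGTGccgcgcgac
Hif1a: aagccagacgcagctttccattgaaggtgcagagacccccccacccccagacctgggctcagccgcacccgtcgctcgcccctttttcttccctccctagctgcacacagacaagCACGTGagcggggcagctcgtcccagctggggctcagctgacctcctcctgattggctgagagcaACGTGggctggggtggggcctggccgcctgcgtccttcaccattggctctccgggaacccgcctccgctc
Spp1: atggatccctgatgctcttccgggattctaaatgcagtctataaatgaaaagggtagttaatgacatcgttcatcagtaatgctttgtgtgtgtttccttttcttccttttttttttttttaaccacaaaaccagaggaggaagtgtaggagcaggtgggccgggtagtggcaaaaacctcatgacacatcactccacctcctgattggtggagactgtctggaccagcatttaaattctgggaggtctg

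The core was present in the window of 8 of the 12 higher genes of the list and of 6 of the 10 other genes of the list that had a window. It was present in 4998 of 27025 genes with a window (18.5%). The list thus held the letters more often than genes at large, and the genes past 2-fold higher held them about as often as the rest of the list. The list was chosen for glycolysis and the hypoxia response, so its excess over genes at large describes that choice and not these cells. The first match in the *Hif1a* window overlaps its reverse as the palindrome CACGTG, which other factors also bind, and a match is not a bound site.

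*Arg1* split the members. *Arg1* encodes arginase 1, which turns arginine into ornithine and is used as a sign of alternative activation. In WT TAC it was at 2104 CPM against 126 CPM in the other monocytes and macrophages (log2 ratio 3.96), with reads in 58.6% of thinned members, 6.69% of the other cells and 1.82% of B cells. The lowest, median and highest levels were 0, 444 and 12408 CPM. A level of 200 CPM or more was found in 16 of 30 members (53.3%, exact interval 34.3 to 71.7) and in 58 of 1057 other cells (5.49%, 4.19 to 7.04). It was found in 7 of 15 members of CD3ϵ-/- TAC, 1 of 7 in the sample labelled CD8-depleted, 1 of the 3 CD3ϵ-/- sham members and 0 of the 3 WT sham members.

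Within WT TAC the 16 members with *Arg1* had a median *Fn1* level of 6654 CPM against 1756 CPM in the 14 without, a median *Pgk1* level of 685 against 206 CPM and a median level of *Aldoa*, another enzyme of glycolysis, of 1125 against 332 CPM. Before thinning, *Vcan* had reads in 68.8% against 35.7% of these cells, and the shares that follow are also before thinning. *Ccl24*, an eosinophil chemokine, had reads in 31.3% of the members with *Arg1* and in 0 of the 14 without, and *Timp1* in 37.5% and again 0 of 14. Of the 16 cells with *Arg1*, 3 had 1000 CPM or more of *H2-Aa*, while 8 of the 14 without *Arg1* did. Any read of *H2-Aa* was present in 43.8% and 64.3% of these cells. The median depth was 188210 reads with and 148971 reads without *Arg1*, and its part in these differences was not tested.

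Inflammatory and growth factor transcripts were present in many but not all members. *Cxcl2*, a neutrophil chemokine, was at 3930 against 919 CPM in WT TAC (2.08), with reads in 72.4% of thinned members, 29.5% of the other cells and 3.64% of B cells. *Osm*, the IL-6 family cytokine oncostatin M, was at 343 against 111 CPM (1.55), with reads in 75.9%, 24.3% and 0 of 55 cells (upper bound 6.49%). Both were higher in each TAC group, with log2 ratios of 0.97 and 1.03 for *Cxcl2* and 1.25 and 1.21 for *Osm* in CD3ϵ-/- TAC and the sample labelled CD8-depleted. *Il1b* and its antagonist *Il1rn* were past 2-fold higher in WT TAC, as was *Ptgs2*, the inducible cyclooxygenase, at 257 against 39.3 CPM with reads in 10 of 30 members. Of 14 chemokines, 5 were past 2-fold higher and 2 lower (median 0.71). *Igf1*, a growth factor of resident macrophages, was at 23.2 against 223 CPM (-2.81), with reads in 10.3% against 34.5% of thinned cells. Against *Ly6c*-high monocytes *Ptgs2* and *Cxcl2* were past 2-fold higher, while *Il1b*, *Il1rn* and *Osm* were not past 2-fold. The median of 7 inflammatory genes was -0.14 there, and of 13 chemokines 3 were past 2-fold higher and 2 lower.

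Innate receptors lay on both sides, the C-type lectins of the Clec4 group among them. *Clec4n* (Dectin-2) was at 760 against 134 CPM, *Clec4d*, which pairs with Mincle, at 230 against 66.2 CPM and *Cd14*, the co-receptor for lipopolysaccharide, at 1299 against 636 CPM. *Clec4b1* was at 5.89 against 107 CPM, and *Clec10a* and *Cd209a*, lectins of alternatively activated and dendritic cells, were also past 2-fold lower. Of 18 receptors compared, 6 were past 2-fold higher and 3 lower (median 0.39). The 6 include *Clec4e*, a marker that names these cells.

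Resident macrophage transcripts were low. Of 19 genes compared, 16 were past 2-fold lower and 0 higher, with a median log2 ratio of -1.80. *Mrc1*, the mannose receptor, was at 109 against 842 CPM, *C1qa* at 721 against 2464 CPM, *Adgre1* (F4/80) at 136 against 443 CPM and *Cbr2* at 6.07 against 157 CPM. *Mgl2*, a further lectin, had reads in 0 of 29 thinned members (upper bound 11.9%) and in 30.9% of the other cells. Against *Ly6c*-high monocytes, 0 of 11 genes were lower and *Mrc1* was higher (109 against 45.4 CPM).

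MHC class II transcripts were lower too. Of 10 genes, 7 were past 2-fold lower and *Cd80* was higher (median -1.19). *H2-Aa* was at 2107 against 5381 CPM, with a lowest, median and highest level of 0, 231 and 10940 CPM, so a number of members had as much as antigen-presenting macrophages and others none. Reads were found in 55.2% of thinned members and 64.2% of the other cells. In CD3ϵ-/- TAC and the sample labelled CD8-depleted the log2 ratios were -1.14 and -1.71. Against *Ly6c*-high monocytes the median of 10 genes was -0.20.

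Of 22 monocyte genes, 3 were past 2-fold higher and 1 lower in the members than in the other monocytes and macrophages (median 0.31), and 1 was higher and 5 lower than in *Ly6c*-high monocytes (median -0.50). Against *Gpnmb* macrophages 16 of 21 were higher and 0 lower. *Ccr2*, the receptor that brings monocytes into tissue, was at 2147 CPM in the members of WT TAC and 1910 CPM in the other cells, and 26 of 30 members had 500 CPM or more. *Plac8* was at 1048 CPM in the members, 3407 CPM in *Ly6c*-high monocytes, 433 CPM in *Ccr2* MHC class II macrophages and 16.7 CPM in *Gpnmb* macrophages. Of 21 interferon-response genes, 14 were past 2-fold lower than in *Ly6c*-high monocytes and 0 higher (median -1.55), with *Isg15* at 245 against 580 CPM. The *Ly6c2* limits chose both of these sets. The tetraspanins *Cd9* and *Cd63* were higher than in *Ly6c*-high monocytes in each of the 3 TAC groups, at 528 against 85.5 CPM and 179 against 30.2 CPM in WT TAC.

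Many lipid handling transcripts were lower in the members of WT TAC than in *Gpnmb* macrophages. The *Gpnmb* limits chose both of these sets, so this comparison is a description. Of 18 genes, 9 were past 2-fold lower than in *Gpnmb* macrophages and 2 higher (median -0.80). *Apoe* was at 11964 against 50034 CPM, *Trem2*, a lipid receptor, at 367 against 1204 CPM and *Fabp5* at 73.4 against 1172 CPM. *Trem2* was at 337 CPM in all other monocytes and macrophages, near the members. *Anpep* and *Atp6v0d2*, a proton pump subunit, were also low in the members (5.89 against 304 CPM and 17.5 against 192 CPM). Against *Ly6c*-high monocytes 7 of 17 lipid handling genes were past 2-fold higher and 1 lower (median 0.57). Against *Ccr2* MHC class II macrophages 6 of 18 were higher and 3 lower (median 0.45). Against all other monocytes and macrophages 3 of 18 were higher and 4 lower (median 0.10).

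**Figure D3:**
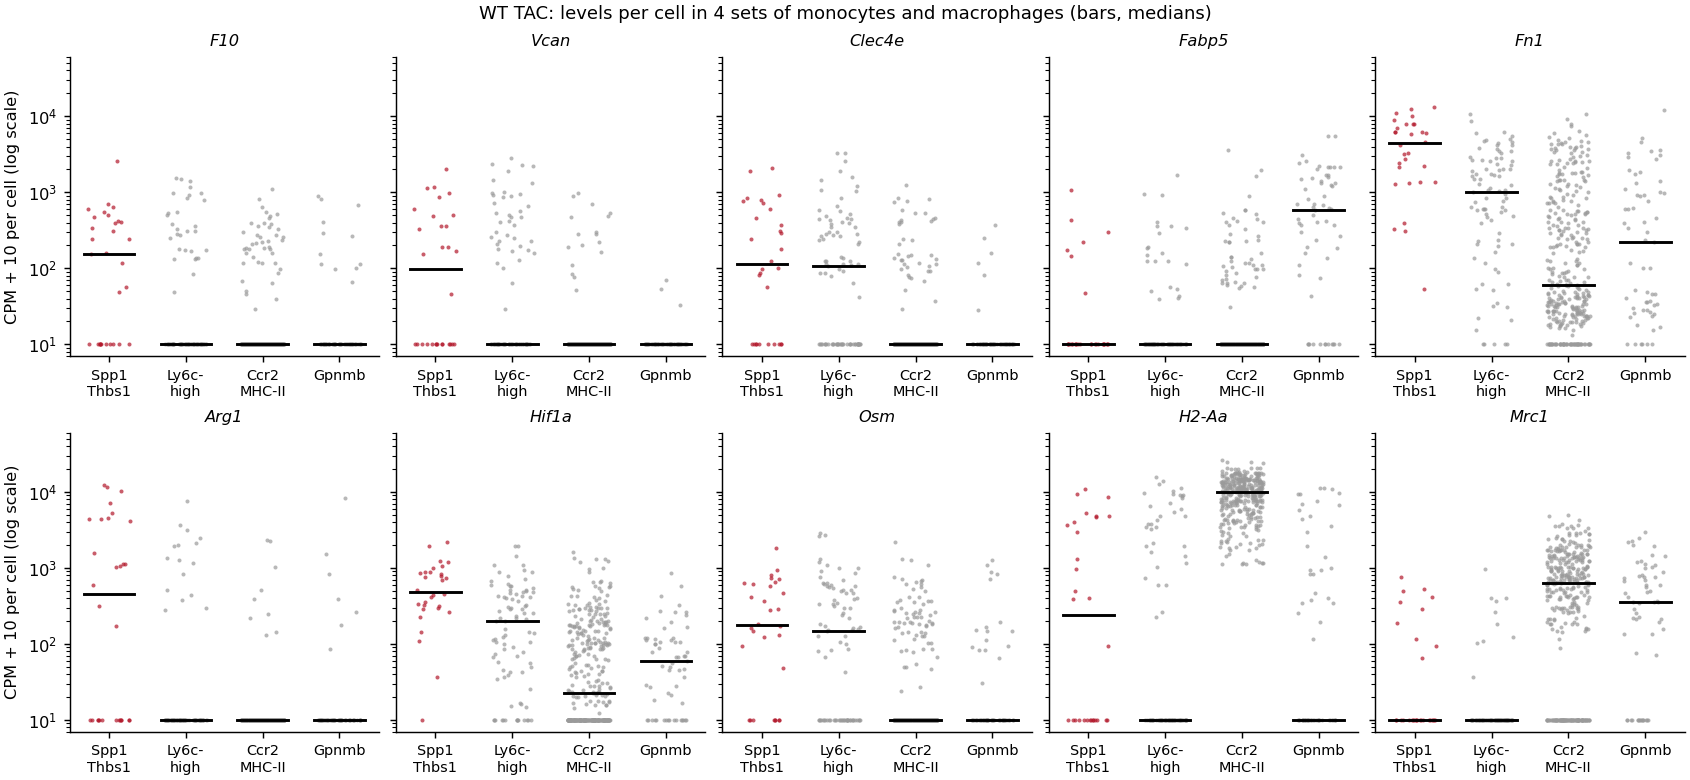
Levels per cell of 10 genes in CPM with 10 added, on log axes, in 4 sets of WT TAC cells (30 *Spp1* *Thbs1* macrophages in red, 89 *Ly6c*-high monocytes, 361 *Ccr2* MHC class II macrophages and 61 *Gpnmb* macrophages in grey), with black bars at the medians. *Fn1*, *Arg1* and *Hif1a* have their highest medians in the members (4408, 444 and 474 CPM), *Fabp5* in the *Gpnmb* macrophages (577 CPM), and cells without a read lie on the line at 10.

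By the smallest of the 3 ratios, 1 for each TAC group, the genes most above the other monocytes and macrophages were *Fn1*, *Arg1*, *Osm*, *Bhlhe40*, *Nrip1*, *Cxcl2*, *Ccdc86*, *Rai14*, *Slc2a1* and *Plek*. *Bhlhe40*, a transcription factor of activated macrophages, had log2 ratios of 1.19, 1.22 and 1.15 in WT TAC, CD3ϵ-/- TAC and the sample labelled CD8-depleted. *Nrip1*, a nuclear receptor co-repressor, had 1.04, 1.08 and 1.27. The genes most below were *Stmn1*, *St3gal6*, *Slamf9*, *Top2a*, *H2-Eb1*, *Clec4b1*, *Slco2b1*, *Clec2d*, *Siglece* and *H2-Aa*. *Stmn1* and *Top2a* mark dividing cells, which the *Mki67* limit kept out. *Slamf9* had -2.44, -2.53 and -1.92 and *St3gal6* -3.12, -2.58 and -2.23. Past 2-fold in the same direction in all 3 TAC groups were 19 of 3442 genes, 5 higher and 14 lower.

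**Figure D4:**
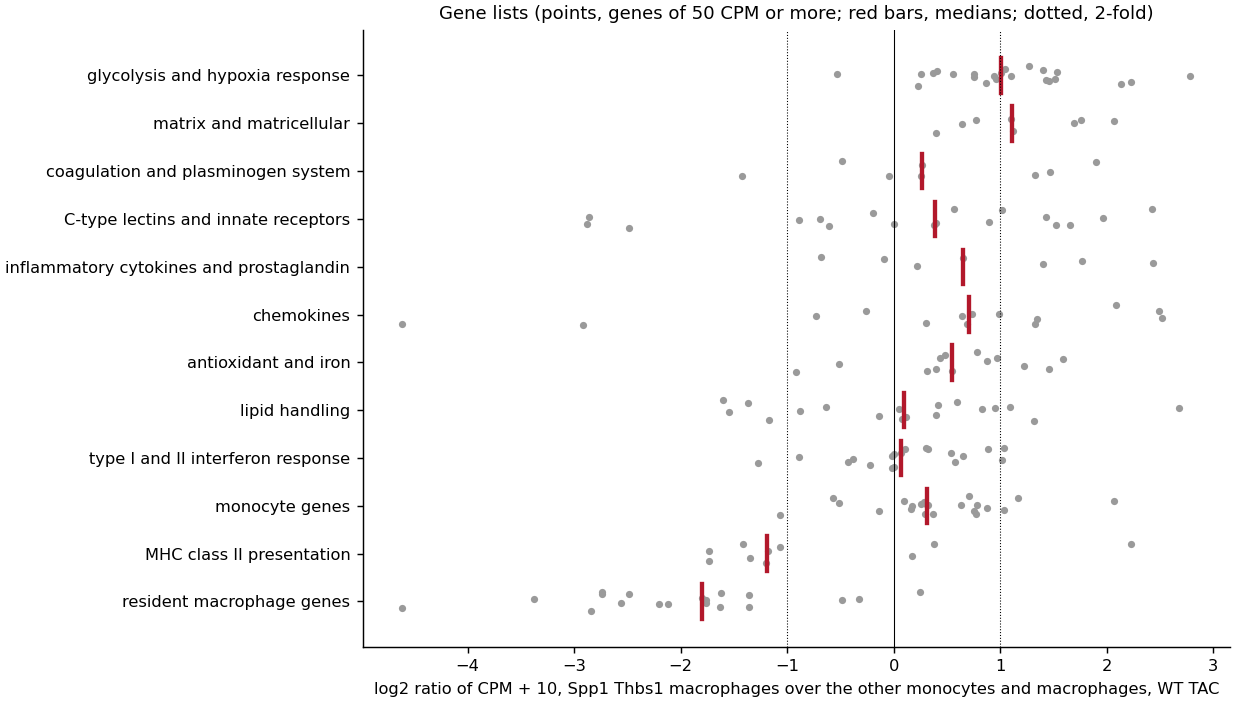
The log2 ratio of each gene of 12 lists (grey points, horizontal) between *Spp1* *Thbs1* macrophages and the other monocytes and macrophages of WT TAC, with 10 CPM added, red bars at the list medians and dotted lines at 2-fold. The medians of the matrix list (1.11) and of the glycolysis and hypoxia list (1.00) are the highest, and that of the resident macrophage list (-1.80) is the lowest of the 12.

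The members did not form a cluster of their own. When all monocytes and macrophages were clustered by the Leiden method, the 58 members lay in 8 of 16 clusters. Cluster 8, led by *Vcan*, *Dmkn*, *Thbs1*, *Clec4e* and *Ptgs2*, held 25 members (43.1%), 18 of them from WT TAC. Cluster 4, led by interferon-response genes, held 9, cluster 2, led by *Ms4a7* and *Syngr1*, held 7, cluster 13, led by *Saa3*, *Prg4* and *Arg1*, held 7 and cluster 14, led by *Spp1*, *Fabp5* and *F7*, held 6. The other 4 members were in 3 clusters. Of the 15 members of CD3ϵ-/- TAC, 5 were in cluster 13 and 3 in cluster 8. The clusters were built from the same cells without the 9 genes of the limits, and these counts describe where the members lie.

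The members of these clusters differed in the transcripts that name them. In cluster 8 the median member had 236 CPM of *F10*, 217 CPM of *Vcan*, 172 CPM of *Clec4e* and 679 CPM of *Hif1a*. In cluster 2 no member had a read of *F10* or *Clec4e*, and the median *Apoe* was 59339 CPM against 5410 CPM in cluster 8. In cluster 13 the median *Arg1* was 5638 CPM and the median *Fn1* 16358 CPM, with reads of *H2-Aa* in 1 of 7 members. In cluster 14 the median *Spp1* was 9127 CPM and the median *Fabp5* 1162 CPM, with *Fabp5* reads in 5 of 6 members. Elsewhere *Fabp5* reads were found in 5 of 25 members of cluster 8, 3 of 7 of cluster 2, 2 of 9 of cluster 4 and 1 of 7 of cluster 13, with a median of 0 CPM in each.

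Between groups the levels are given side by side, since 15, 7, 3 and 3 cells are too few for a count of genes. The summed *Arg1* level was 2104 CPM in WT TAC, 5568 CPM in CD3ϵ-/- TAC and 190 CPM in the sample labelled CD8-depleted, and its median was 444, 0 and 0 CPM, so the order of the sums is set by a part of the cells. The summed *Fn1* level was 4897, 10317 and 6099 CPM, with medians of 4408, 4438 and 762 CPM. The median *Hif1a* was 474, 107 and 131 CPM and the median *Il1b* 590, 35.7 and 184 CPM, both highest in WT TAC, with ranges that overlapped in all 3 groups. The sham members had *Cxcl2* throughout, with 5395, 6904 and 9048 CPM in WT sham and 1745, 6289 and 9289 CPM in CD3ϵ-/- sham, while 8 of the 30 members of WT TAC had none. They also had *Fabp5* of 79.9, 1002 and 1410 CPM in WT sham, and a single member had it in CD3ϵ-/- sham, at 1323 CPM.

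**Figure D5:**
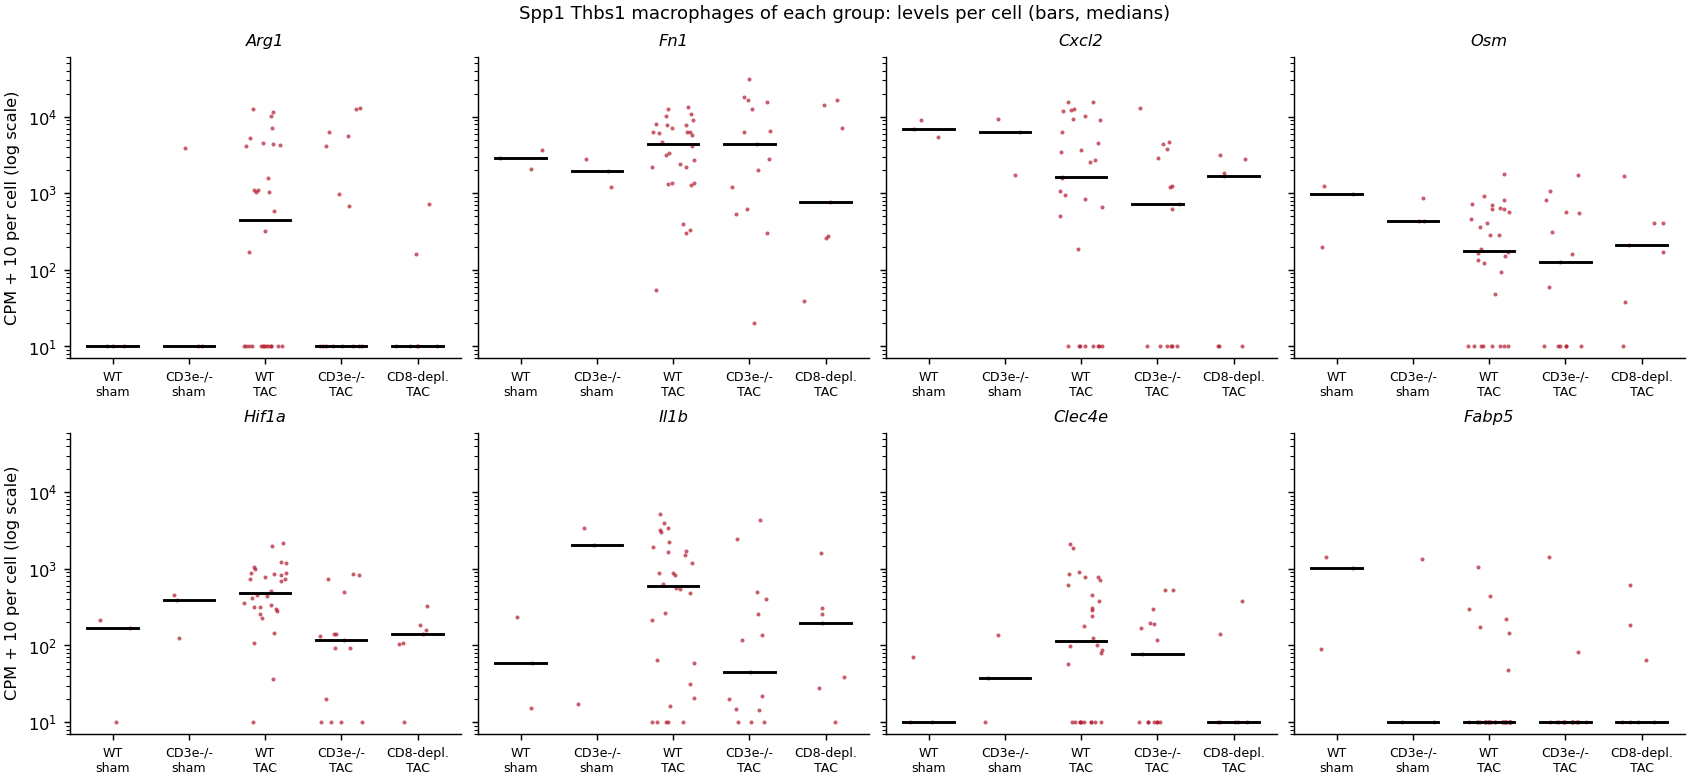
Levels per cell of 8 genes in the *Spp1* *Thbs1* macrophages of each group (3, 3, 30, 15 and 7 cells) in CPM with 10 added, on log axes, with black bars at the medians. *Hif1a* and *Il1b* have their highest TAC medians in WT TAC (474 and 590 CPM), and *Fabp5* is at 0 in the median TAC cell.

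Lists of markers of other cell types were at low sums in the members, with exceptions. No member had a read of *Cd3g*, *Ncr1*, *Col1a1*, *Myh6*, *Ppbp* or *Gp9*, and *Cd79b* and *Ms4a1* each had reads in 1 of 58. The summed level of 7 fibroblast markers was 0 CPM in WT TAC, with 7 of 7 at 0. The 5 endothelial markers summed to 131 CPM in the members of WT TAC against 12.8 CPM in the other cells, and a single member with 3801 CPM held most of them. The part of that cell in the *Vegfa* and other sums was not tested. The 7 platelet markers summed to 7.68 CPM in the members of WT TAC, 210 CPM in CD3ϵ-/- TAC and 297 CPM in the sample labelled CD8-depleted, against 392, 271 and 498 CPM in the other monocytes and macrophages, and 5 of 15 and 3 of 7 members of the last 2 groups had 100 CPM or more. *Ppbp*, *Gp9*, *Gp6* and *Treml1* were at 0 in all of these members. In the sample labelled CD8-depleted the whole sum was that of *Pf4*, and in CD3ϵ-/- TAC only *Pf4* and *Gp1bb* had reads. *Pf4* is also on the list of resident macrophage genes, so these sums do not show platelet reads. The 7 neutrophil markers summed to 38.7 to 235 CPM over the 5 groups, with *S100a9* and *Retnlg* at 0 in each and *Csf3r* reads in 38 of 58 members, against 73.9 to 230 CPM in the other cells. The 6 B cell markers summed to 0 to 133 CPM, against 205 to 368 CPM in the other cells, and *Ighd* and *Igkc* were at 0 in the members, while *Ighm* had reads in 12 of the 30 members of WT TAC. Of 18 immediate early and heat shock genes, which rise when tissue is dissociated, 1 was past 2-fold higher and 1 lower (median -0.14). Against *Gpnmb* macrophages 6 of 17 were past 2-fold higher and 0 lower (median 0.82), and their part in that comparison was not tested.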

How the data were processed

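CD45+ cells of 5 hashtagged heart samples went into a single TAS-Seq library (BD Rhapsody). The matrix deposited by the authors holds whole-number counts of reads for each gene in each cell barcode, without molecular identifiers. Reads copied by PCR are not independent, so the Poisson intervals of summed reads are too narrow as measures of molecules. All intervals cover counting error only. The authors assigned hashtags and set doublets apart. The submitters' processing notes name cutadapt 2.10, Bowtie2 2.4.2 and the build GRCm38. Barcodes above an inflection point and distribution-based error correction are named by the matrix. The effect of that correction on low counts was not tested. Groups were read from the notes deposited with it.

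Of 5363 columns, 48 without a single hashtag were not used, and no doublet caller was run. The cells kept had at least 500 genes and at most 0.4 of their reads from mitochondrial genes, as in the study. Depth was 32793 to 481690 reads in a member. Levels of a set are summed reads over summed totals in CPM, and ratios are log2 with 10 CPM added for genes of 50 CPM or more in either set, without the 9 genes of the limits. This understates changes of low genes. Intervals of 95% are exact Clopper-Pearson for shares and exact Poisson for summed reads, and the interval of a difference of shares combines the Clopper-Pearson limits of both shares by root sum of squares (the Newcombe construction). A group entered a count of genes with 20 or more members, which left WT TAC, so the members of CD3ϵ-/- TAC and the sample labelled CD8-depleted were not compared with those of WT TAC gene by gene. Cells were thinned to 38944 reads by drawing without replacement. Clusters of the alternatives used 2000 variable genes without the 9 genes of the limits, 30 principal components, 20 neighbours and a resolution of 1. With 1 sample a group no p-value or standard error was computed.

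The members, limits and gene lists were chosen with earlier results of these data known. Named genes were the markers, the genes of the lists highest in level or furthest from a comparison set, and by the smallest of the 3 ratios of the TAC groups the 10 highest and 10 lowest against the other monocytes and macrophages, and the 5 and 5 against each of the other sets. *Aldoa*, *Ccl24* and *Timp1* in the *Arg1* split and the genes of the clusters were named after their values were seen. Promoter sequences were taken from RefSeq (GRCm38.p6), and those of *Thbs1*, *Arg1* and *Fn1* were not analysed here. The ratio of summed reads was tested on simulated cells with known changes, and thinning was checked to keep the set number of reads. The other steps were not tested in this way. Python 3.11.15 with numpy 2.4.6, scipy 1.17.1, igraph 0.11.9, leidenalg 0.10.2, scikit-learn 1.9.0 and matplotlib 3.10.9 was used.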

Additional observations from a re-analysis of the deposited data

How the results depend on the processing

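Under the 10 other limits, filters and denominators, the difference in share between WT TAC and WT sham ran from 1.30 to 2.41 percentage points, and every interval stayed above 0. Taking whole clusters in place of limits gave other answers. The cluster with the highest mean *Spp1* held 6 members, and with it WT TAC minus WT sham was 0.0669 points, CD3ϵ-/- TAC minus its sham -2.58 and the sample labelled CD8-depleted minus WT TAC 0.984. With the cluster that held the most members, an alternative added after seeing the data, WT TAC minus WT sham was 8.79 points, CD3ϵ-/- TAC minus WT TAC -4.43 and the sample labelled CD8-depleted minus WT TAC -3.57. These clusters hold 73 and 210 cells, most of them outside the limits.

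The counts of genes past 2-fold depended on the CPM added and on the filter. Against the other monocytes and macrophages, *Ly6c*-high monocytes, *Ccr2* MHC class II macrophages and *Gpnmb* macrophages the counts were 308, 259, 393 and 716. With 50 CPM added they were 118, 69, 167 and 286, and with no filter on level 748, 762, 836 and 1444. With the mean over cells the count against *Ly6c*-high monocytes was 404. The planned count was of genes past 2-fold in the same direction in each of the 3 TAC groups. Only WT TAC held the set minimum of members, so the counts above are of WT TAC alone. Without that minimum, a step added after seeing the counts, 19, 52, 47 and 97 genes passed in all 3 TAC groups. These 3 groups held 30, 15 and 7 members, and the cause of the lower counts was not tested. No paired analysis was possible because each group is 1 sample, and no replicate could be left out for the same reason. The 2 comparisons of members between TAC groups were not run under any alternative because too few members were present.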
